A study of Ovis aries with 18 samples.

Results

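Among the genes measured in 3 skeletal muscles of lambs, 96 of 20477 had a level that was similar in all 3 muscles yet rose and fell with the number that the libraries carry in their labels. These were soleus (SOL), which lies in the hind leg and works in posture, longissimus lumborum (LL), which runs along the loin, and psoas major (PM), known as the tenderloin. Each was sampled from the left side of lamb carcasses and gave 6 libraries, numbered 1 to 6 in every muscle, so that there were 18 libraries in 3 groups. All groups are untreated lamb muscle, and the labels used here give no age, breed or sex. A number is not tied in the labels to a carcass, and a carcass, a dissection day or any other thing shared by the libraries of 1 number cannot be told apart in these data.

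The 96 genes were chosen by their values. Levels are FPKM, the reads counted on a gene scaled to its length in kilobases and to the library total. A gene was a member when the mean of its 3 muscle means was at least 1 and below 100 FPKM, and the largest muscle mean was less than 1.5 times the smallest. In addition, the Pearson r of log2(FPKM + 0.1) over numbers 1 to 6 had to be at least 0.7 between LL and PM, between LL and SOL and between PM and SOL. Level and evenness left 6701 genes, called the eligible genes below, and the correlations left 96 of these, or 1.43%. What follows about agreement between muscles therefore describes the choice and is given without a test.

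Skeletal muscles of an animal share its genome, its sex, its age and its blood supply, and differ in their fibres: soleus is a classical slow, oxidative muscle, while the loin and tenderloin hold more fast fibres. A gene whose level differs between animals in every muscle alike is a familiar observation in expression studies. Inherited variants that alter a promoter or remove a gene, sex, feeding and stress before slaughter, and hormones are textbook sources of such variation. None of these was measured here. The table gives Ensembl sheep gene identifiers, which it does not pair with names, and the RefSeq gene table at hand matched 0 of them, so that no function can be given for any gene and the muscle labels could not be checked against marker genes.

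The size of the number differences ranged widely among the members. For each gene, the deviation of every library from its muscle mean was averaged over the 3 libraries of a number, and the spread is the highest number's average minus the lowest, on the log2(FPKM + 0.1) scale. The median spread was 1.38 in the members, with a range of 0.38 to 8.28, and 0.59 in the eligible genes. In 38 members the spread was under 1, in 21 it was 1 to 2, in 17 it was 2 to 4, and in 20 it was 4 or more. For low genes these values depend on the pseudocount: 23 members reached 4 with a pseudocount of 0.01 and 8 with a pseudocount of 1, where the highest spread was 11.0 and 5.79. A spread of 2 or more was found in 37 members with pseudocounts of 0.1 and 0.01 and in 31 with 1. Of the eligible genes with a spread under 1, 0.689% were members, against 2.32% of those at 1 to 2 and 6.91% of those at 2 to 4. At 4 or more, 20 of 34 eligible genes were members. The spread is an average over the muscles and the correlations use the same values, so these shares describe the choice and are no separate evidence of agreement.

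**Figure D1:**
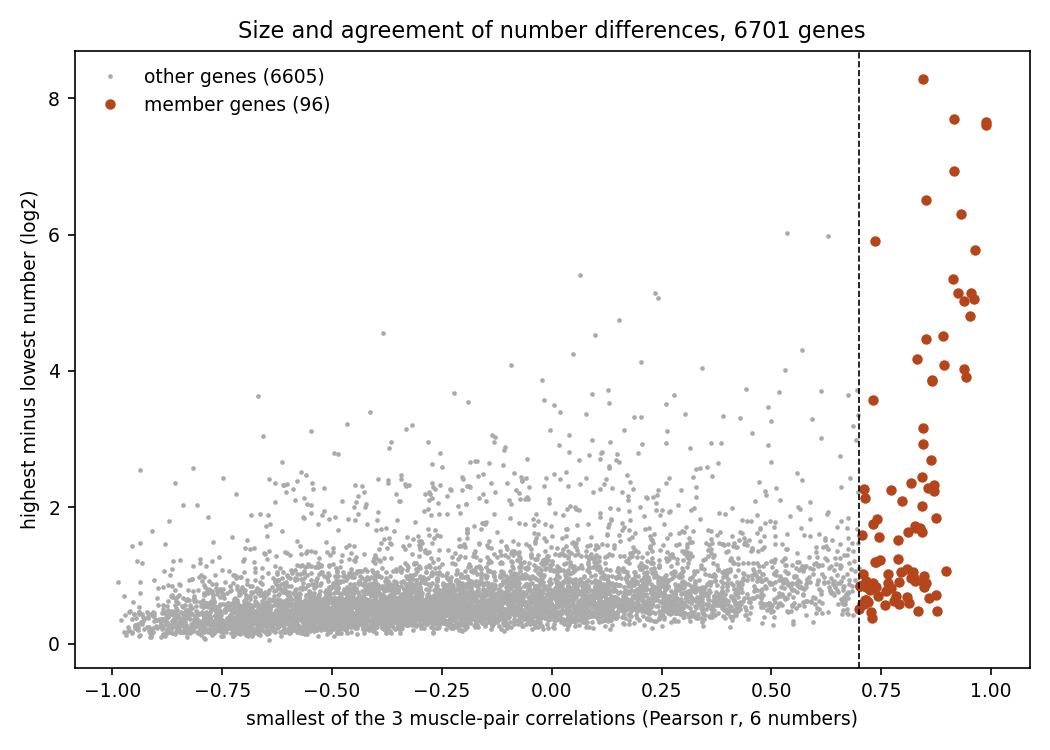
Each point is 1 of the 6701 eligible genes. The horizontal axis gives the smallest of its 3 muscle-pair correlations over 6 numbers, the vertical axis the log2 difference between its highest and lowest number, and the dashed line the limit of 0.7. The 96 members lie right of the line by choice, and both axes come from the same values, since the vertical axis averages the muscles. Of the 34 points above 4, 20 are members.

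In the members as a whole, the number accounted for a median of 87.4% of the variance left after muscle means were removed (67.3% to 99.4%), against 40.5% in the eligible genes. The residual SD within numbers had a median of 0.252 in the members and 0.329 in the eligible genes (log2 scale, 10 residual degrees of freedom). The median correlation was 0.88 between LL and PM, 0.86 between LL and SOL and 0.89 between PM and SOL in the members. Over the eligible genes these medians were 0.13, 0.10 and 0.25. At the limit, the members with the smallest correlations stood at 0.7001 and 0.702, and the nearest eligible genes outside at 0.6988 and 0.6979. The members nearest to the evenness limit had muscle ratios of 1.498 and 1.488, and the nearest genes beyond it 1.503 and 1.505.

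**Figure D2:**
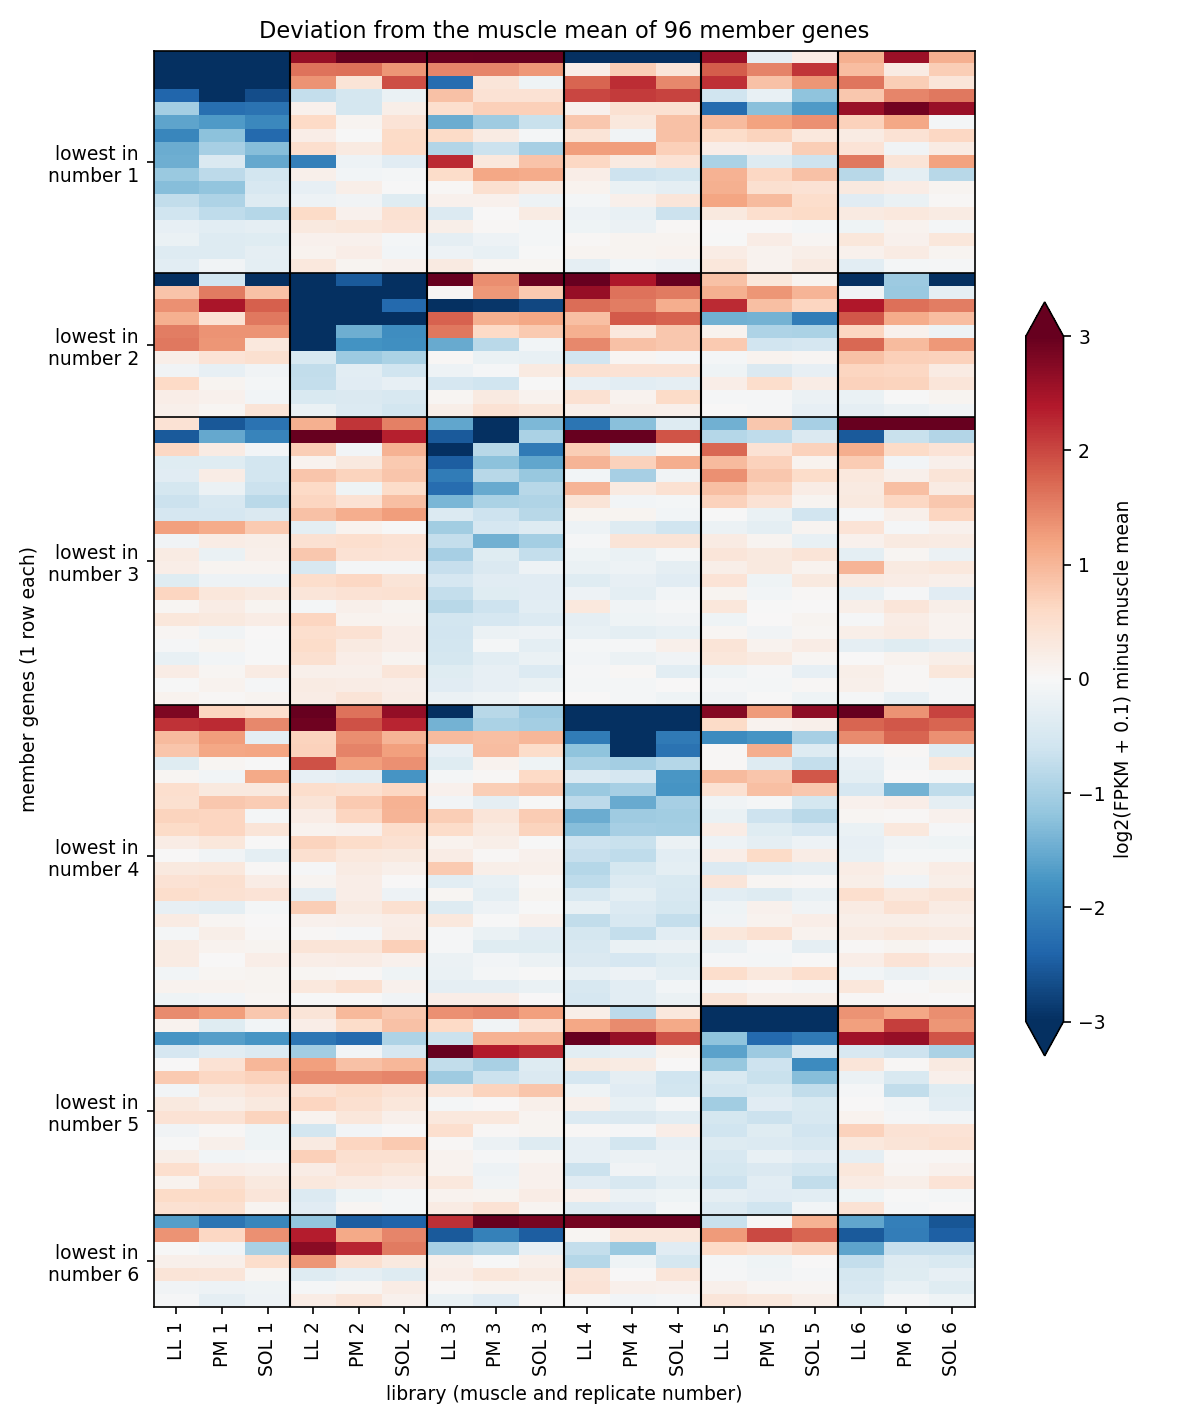
Rows are the 96 member genes, grouped by the number in which they were lowest and sorted by spread within each group. Columns are the 18 libraries ordered by number, and colour gives log2(FPKM + 0.1) minus the muscle mean, with values beyond 3 drawn in the end colours. The LL, PM and SOL libraries of a number share their colour in most rows, and 17, 11, 22, 23, 16 and 7 members were lowest in numbers 1 to 6.

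Some members were at 1 FPKM or more in some numbers and below 1 FPKM in others. In 18 members all 3 libraries of at least 1 number were below 1 FPKM and all 3 libraries of another number were at 1 FPKM or more. Such genes made up 18.8% of the members and 1.26% of the other 6605 eligible genes. A number low in all 3 muscles beside another high in all 3 is what the correlations favour, so these shares describe the choice. Every number was low in some of the 18 members: 6 were below 1 FPKM in number 1, 6 in number 2, 4 each in numbers 3, 4 and 5, and 1 in number 6. In 12 of the 18 a single number was low, in 5 a pair of numbers and in 1 gene 3 numbers. All 6 numbers fell wholly on either side of 1 FPKM in 8 of the 18. The others were less clear-cut: 4 of the 18 were at 1 FPKM or more throughout in only 2 numbers. In ENSOARG00020007094, named after its values were seen, the sides met at 0.95 and 1.01 FPKM. A level below 1 FPKM does not mean unread: this gene held 7 to 25 reads per library in number 5. In ENSOARG00020007977 (87 bp), also named after its values were seen, the only read in number 4 stood at 0.923 FPKM.

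ENSOARG00020008152 (recovered length 318 bp), the member with the widest gap below the other numbers, had no read in any number 1 library. Its levels in LL, PM and SOL were 19.6, 15.3 and 14.6 FPKM in number 2, 17.5, 13.3 and 14.3 in number 3, and 7.21, 8.08 and 7.38 in number 4. In number 5 they were 22.4, 13.7 and 25.8 FPKM, and in number 6 they were 12.1, 5.70 and 9.71. The 3 number 1 libraries thus lay below all 15 others, which held 21 to 121 reads each. Set against a floor of 3 reads per number 1 library, the mean of number 5, 20.6 ± 6.26 FPKM (SD, n = 3 muscles), was at least 25.7-fold higher. Number 4 was also low in all 3 muscles relative to numbers 2, 3 and 5, and its highest library, at 8.08 FPKM, was below the lowest of those, at 13.3. The 3 correlations were 0.989 or more.

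ENSOARG00020023063 (2591 bp) was nearly unread in number 5, with 0 reads in LL and SOL and 3 reads in PM, or 0.0932 FPKM. Elsewhere its level in LL, PM and SOL was 6.85, 7.45 and 4.05 FPKM in number 1, 3.31, 6.06 and 4.08 in number 2, and 6.61, 8.53 and 5.42 in number 3. Number 4 stood at 2.84, 1.74 and 2.85 FPKM and number 6 at 6.53, 6.97 and 6.14. Number 5 was thus apart from all other numbers in every muscle, and number 4 was the next lowest in each. The libraries of the other numbers held 56 to 247 reads each.

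A graded pattern was seen in ENSOARG00020023458 (1229 bp), the member with the highest smallest correlation (0.989). In LL, PM and SOL it stood at 0, 0.0653 and 0.136 FPKM in number 4, which is 3 reads in all, and at 2.23, 2.93 and 2.80 in number 3. Number 5 followed at 9.13, 6.16 and 6.35 FPKM. Number 6 gave 20.8, 21.2 and 19.4 FPKM, number 1 gave 27.8, 27.5 and 15.9, and number 2 gave 46.6, 21.8 and 28.5. Numbers 4, 3 and 5 were ordered in the same way in all 3 muscles with no overlap between them, and above them number 1 overlapped both number 6 and number 2.

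Further genes of this kind were picked after their values were seen. ENSOARG00020011462 (180 bp) had no read in the 6 libraries of numbers 1 and 4. It stood at 14.7, 27.5 and 21.5 FPKM in LL, PM and SOL of number 2 and at 19.0, 19.5 and 15.5 in number 3. Its level in number 5 was 14.6, 1.79 and 1.88 FPKM and in number 6 it was 4.98, 13.4 and 3.43, so that the muscles disagreed within these numbers. Set against the same floor, the mean of number 2, 21.2 ± 6.39 FPKM (SD, n = 3), was at least 15.0-fold higher than number 1. ENSOARG00020007238 (957 bp) had 1 read in the 3 libraries of number 2 and 12 to 161 reads in each of the other 15. ENSOARG00020003014 (243 bp) is the third member with a number at 0 reads throughout, again number 1; its other libraries ranged from 0.403 to 11.7 FPKM. In all, 3 members and 3 of the other 6605 eligible genes had a number with 0 reads in all 3 libraries beside a number at 1 FPKM or more in all 3. These counts, too, rest on values that the choice of members used.

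**Figure D3:**
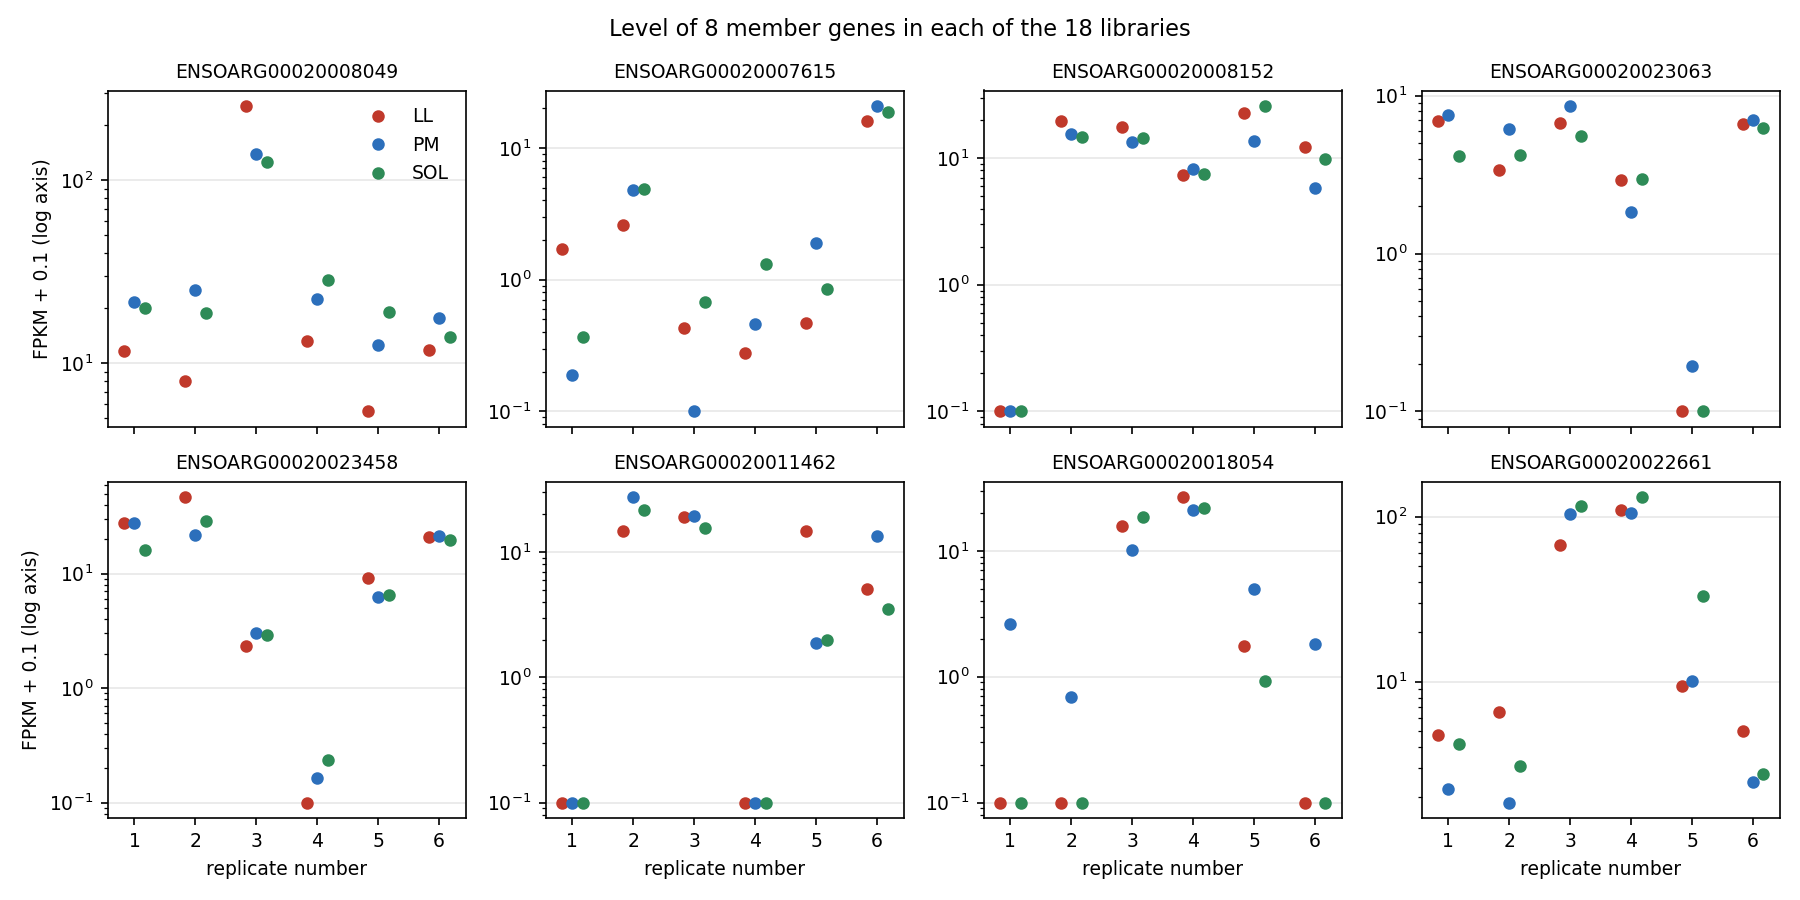
Each panel is 1 gene, each point 1 library, with the replicate number on the horizontal axis and FPKM + 0.1 on a log axis; colours mark LL, PM and SOL. ENSOARG00020008152 and ENSOARG00020011462 sit at the bottom of their panels in number 1, where no read was counted. ENSOARG00020008049 stands high in number 3, at 125 to 255 FPKM, and ENSOARG00020007615 in number 6, at 16.0 to 20.8 FPKM.

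Other genes were high in a single number. Where the 6 numbers of a gene were split at the widest gap between them, 37 members had 1 number below the other 5 and 17 had 1 number above them. Among the 37 members with a spread of at least 2, these counts were 15 and 6. The log2 scale stretches differences between low levels, so the counts do not compare the sizes of rises and falls. No share over the eligible genes is given beside these counts, so they are not read as a trait of the members. ENSOARG00020008049 (168 bp) had the widest gap above the other numbers. It reached 255, 139 and 125 FPKM in LL, PM and SOL of number 3, while the other 15 libraries ranged from 5.36 to 28.5 FPKM. The mean of number 3 was 173 ± 71.6 FPKM and that of number 4, the next, 21.4 ± 7.69 (SD, n = 3 each).

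ENSOARG00020007615 (896 bp) stood at 16.0, 20.8 and 18.5 FPKM in LL, PM and SOL of number 6, or 160 to 216 reads each. In number 2 it was at 2.52, 4.71 and 4.76 FPKM, and in the remaining 4 numbers at 0 to 1.80. Number 6 was thus above every other library, and number 2 above all of the rest. Its smallest correlation, 0.736, was the lowest among the 20 members with a spread of 4 or more, and the low numbers were ordered differently in each muscle.

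The members did not follow 1 common profile. Among 4560 pairs of members, 2 pairs had profiles over the 6 numbers that correlated at 0.9 or more in each muscle, and 3 pairs at -0.9 or less. These correlations rest on 6 points from the same libraries and are given as descriptions, with no share over pairs of eligible genes beside them. When each profile was scaled to the same length, the 5 axes of variation held 34.2%, 24.8%, 16.0%, 13.3% and 11.7% of the members' variation. In the eligible genes they held 26.6%, 25.0%, 17.0%, 16.3% and 15.0%. Deviations of 6 numbers from their mean leave 5 axes, so some variation on each was given in advance. The first axis held more in the members than in the eligible genes, and in neither set did 1 axis hold most of the variation.

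The 5 pairs were named after their values were seen. ENSOARG00020018054 (249 bp) and ENSOARG00020022661 (291 bp) were both high in numbers 3 and 4. The first stood at 15.7, 10.1 and 18.5 FPKM in LL, PM and SOL of number 3 and 26.7, 21.0 and 21.9 in number 4, with 0 to 4.85 FPKM in the other 12 libraries. The second stood at 67.6, 103 and 117 FPKM in number 3 and 109, 106 and 132 in number 4. Its other libraries ranged from 1.75 to 33.1 FPKM, with all 3 libraries of number 5 above those of numbers 1, 2 and 6. The groups did not overlap in either gene, and the averaged profiles correlated at 0.996.

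ENSOARG00020010262, at 16.3 to 33.1 FPKM with a spread of only 0.60, ran opposite to ENSOARG00020018054 (averaged r = -0.97). The other like pair was ENSOARG00020018064 and ENSOARG00020023858 (averaged r = 0.95). Both were lowest in number 4, at 2.56 to 3.58 FPKM in the first and 3.89 to 5.21 in the second. Opposite profiles were also found for ENSOARG00020018502 and ENSOARG00020025727 (averaged r = -0.98), where the first was below 1 FPKM and the second at 5.22 to 9.11 FPKM in number 2. In the pair ENSOARG00020026159 and ENSOARG00020019119 (averaged r = -0.97), number 5 held 0.117 to 0.179 FPKM of the first and 81.9 to 93.8 of the second. The positions of these genes are not given in the files used. Of all members, only ENSOARG00020010802 and ENSOARG00020010804 stood next to each other among the eligible identifiers, and their averaged profiles correlated at 0.36.

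Both of the most abundant members had spreads below the members' median. ENSOARG00020022958 (3281 bp), with the highest mean of 85.4 FPKM, had a spread of 0.84. Its level in LL, PM and SOL was lowest in number 2, at 60.9, 67.1 and 54.8 FPKM, and highest in number 4, at 115, 98.3 and 113 FPKM, and these numbers did not overlap. ENSOARG00020025220 (8115 bp), with a mean of 85.3 FPKM and 153898 reads over 18 libraries, had a spread of 0.65. It was highest in number 1, at 126, 94.4 and 85.0 FPKM, and lowest in number 6, at 66.8, 57.1 and 68.7 FPKM. Number 1 again lay above number 6 in all 3 muscles.

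The smallest spreads were those of ENSOARG00020022558 (0.38) and ENSOARG00020009375 (0.46). The first reached 23.7, 29.2 and 27.5 FPKM in LL, PM and SOL of number 2 and 17.8, 20.6 and 23.5 in number 3. The second reached 21.1, 20.0 and 19.2 FPKM in number 5 and 12.6, 15.7 and 15.5 in number 6. In both, all libraries of the highest number lay above those of the lowest, a separation found in 94 of the 96 members. The exceptions were ENSOARG00020010262 and ENSOARG00020011632. In every member the highest and lowest numbers were picked by these same values, and the members by their correlations. The count of separated members therefore describes the choice, and no share over the eligible genes is given beside it.

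Members with large spreads were lower, shorter and more thinly read than the rest. The median level was 19.6 FPKM at a spread under 1, 18.2 at 1 to 2, 9.39 at 2 to 4 and 5.85 at 4 or more. The median recovered gene length fell along the same classes, at 1904.5, 1211, 933 and 788.5 bp, and the median reads per library were 535.5, 262, 95.6 and 47.5. All members had between 281 and 153898 reads over the 18 libraries, and 80 members had no library at 0. Lengths under 500 bp were found for 8 of the 20 members with a spread of 4 or more and for 0 of the 38 with a spread under 1. They made up 12.5% of the members and 3.61% of the eligible genes. Lengths divisible by 3, as coding sequences without untranslated parts have, made up 62.5% of the members and 45.9% of the eligible genes. By class of spread they were found for 17 of 38 members under 1 and 12 of 21 at 1 to 2. At 2 to 4 they were found for 16 of 17 and at 4 or more for 15 of 20, so the excess lay mainly at large spreads. Short genes that are copies of other genes may share reads with them, and how such reads were counted is not stated.

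The numbers did not contribute equally. Number 2 was the highest in 33 members (34.4%), number 5 in 18, number 6 in 15, number 4 in 12, number 1 in 11 and number 3 in 7. Among the eligible genes number 2 was also the most frequent, at 25.2%, followed by number 6 at 24.0%. Numbers 4 and 3 were the lowest most often in the members (24.0% and 22.9%) and in the eligible genes (24.4% and 24.1%). The median deviation of all eligible genes was 0.07 in numbers 2 and 6 and -0.08 in number 4. This lay in PM and SOL: it was 0.10 and 0.19 in PM 2 and SOL 2, 0.09 and 0.13 in PM 6 and SOL 6 and -0.16 and -0.06 in PM 4 and SOL 4. LL did not follow, at -0.03, -0.0011 and -0.0087 in LL 2, LL 6 and LL 4. Of the 38 members with a spread under 1, 16 were highest in number 2 and 12 lowest in number 4. After median-ratio scaling of the libraries, which evens out such shifts, the correlations still passed in all 37 members with a spread of at least 2. The whole rule was met by 29 of these 37. The correlations passed in 14 of the 21 at 1 to 2 and in 15 of the 38 under 1. The scaling factors ran from 0.882 (PM 4) to 1.23 (SOL 2), which is small beside a log2 spread of 2 or more. Members with such spreads therefore had little room to fail. The part of library shifts in the number differences was not tested.

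**Figure D4:**
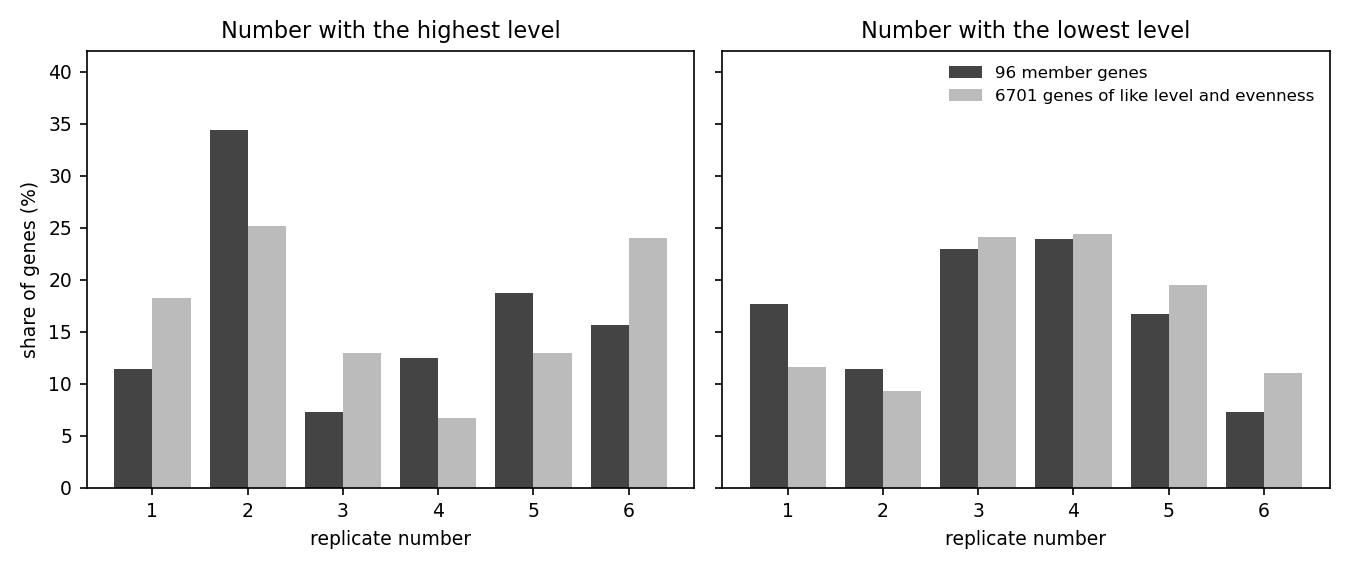
Bars give the share of genes, in percent from 0, whose highest (left) or lowest (right) average deviation fell in each replicate number, for the 96 members and the 6701 eligible genes. Number 2 is the most frequent highest number in both sets, at 34.4% and 25.2%.

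Library totals ranged from 10216739 to 14747118 reads. LL 3 resembled the other LL libraries least (mean r 0.785) and had the fewest genes detected, 12704. SOL 5 had the fewest of its muscle, 14181, and in SOL 3 a transcript abundant in LL and PM, ENSOARG00020018635, stood at 139 FPKM against 7.47 or less in the other soleus libraries. Without LL 3, 31 of the 37 members with a spread of at least 2 still passed the correlations, without SOL 3 32 and without SOL 5 34. The whole rule was met by 20, 25 and 28 of the 37 in the same order. Pairs with the muscle of the left-out library rest on 5 points, where a given r is reached more easily. In bulk tissue, fewer cells of a type and less RNA per cell cannot be told apart, and markers of other cell types could not be read without gene names, so their part in the number differences was not tested.

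The profile rested on single numbers in many members. When each number was left out in turn, 69 to 82 of the 96 members still had all 3 correlations at 0.7 or more, and 29 had them in all 6 cases. Of these 29, 21 had a spread of at least 2 and 4 a spread under 1. Among the 18 members that were below 1 FPKM in all 3 libraries of a number, 14 passed in all 6 cases. By rank, 51 of the 96 members had a Spearman rho of at least 0.7 in all 3 pairs and 17 had a smallest rho below 0.5.

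Across all genes, limma's F-test of the replicate number, with muscle in the model, called 292 of 15434 genes at an adjusted p under 0.05, or 1.89%. The members held 55 of these calls, a count that follows from the choice of members. A further 44 calls lay in other eligible genes, 144 in genes of 1 to 100 FPKM that were uneven among muscles, and 49 outside those levels. The same correlation rule was met by 131 of 5186 genes (2.53%) that had the level but not the evenness, and by 40 genes below 1 FPKM and 24 at 100 FPKM or more. Over the 15434 tested genes, 1.85% met it. Agreement by number was therefore not limited to genes even across muscles.

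The 3 muscle comparisons are given for the members as a description, since evenness was part of their choice. The members were also chosen for number profiles shared by the muscles. Differences between numbers count as residual spread in a model without the number, so counts with the number as a block are given beside those without it. The correlations in the rule favour a small residual once the number is in the model. More members called with the block therefore follow in part from the choice. In the soleus compared with LL, limma without the block called 5 members, all higher in SOL, where 25.4% of all tested genes were called. With the replicate number as a block, 21 were higher and 2 lower, where 29.4% of all genes were called. The lowest same-numbered r was smaller between LL and SOL than between PM and SOL. Against PM, limma without the block called 1 member, higher in SOL, where 16.8% of all genes were called. With that block, 7 members were higher and 2 lower in SOL than in PM, where 19.8% of all genes were called. No member was called for PM against LL by limma without the block, where 1.48% of all genes were called. At an unadjusted limma p under 0.05 there were 4 members, beside 12.7% of all tested genes. With the block, 1 member was called, lower in PM, where 2.69% of all genes were called. Comparisons with a muscle in common share its libraries. The gene called in both soleus comparisons was ENSOARG00020011632, named after its values were seen, with muscle means of 20.0 FPKM in LL, 20.5 in PM and 29.2 in SOL. The members' median log2 difference was 0.20 for SOL minus LL, 0.15 for SOL minus PM and 0.06 for PM minus LL, beside 0.24, 0.15 and 0.06 for all tested genes.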

How the data were processed

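RNA from LL, PM and SOL was sequenced after ribosomal RNA depletion. Per the labels' protocols, reads were trimmed with Cutadapt, then aligned (HISAT2, 2.2.1) and assembled into transcripts (StringTie, 2.2.0). DESeq appears in the submitters' processing notes with no role stated. The build, annotation, counter and strand setting used are not given in the sources used. The values deposited are FPKM, a unit read from its values because the header names none. Multiplied by a whole gene length and a library total, the values of 16184 genes came within 0.018 of whole reads, which gave the reads and lengths used. Lengths were accepted only where the values came close to whole reads, so this distance was bounded in advance. No depth-based interval is given, and floors cover counting error only.

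A filter on the mean over all libraries (0.1 FPKM) kept 15434 genes, all 96 members among them, which were fitted as log2(FPKM + 0.1) with a variance trend in limma (3.58.1, under R 4.3.3) and Benjamini-Hochberg adjustment, two-sided. Such fold changes understate low genes. The muscle model has no block. The values are normalized, so no count test was used. The methods were tested on simulated data. The members and lists were chosen with earlier results of these data known. Marker lists had no members, as no gene has a name. Identifiers are named by rule: 2 members each with the widest gap above or below the other numbers, the highest smallest correlation, the highest mean and the smallest spread. Those outside the rule are marked as picked after their values were seen.

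To check the pairing by number, deviations from muscle means were correlated across genes, which are not independent replicates. In the 15338 tested genes that are not members, same-numbered libraries gave r of 0.117 to 0.218 between PM and SOL, 0.078 to 0.167 between LL and PM and 0.073 to 0.180 between LL and SOL. Libraries of different numbers gave at most 0.050. Over all tested genes, the lowest same-numbered r was 0.125, 0.090 and 0.086 in the same order. No label ties a library to a separate animal, so the p-values reflect the spread among libraries, which may be technical. Every same-numbered r was over 0.1 between PM and SOL only. In the pairs with LL, every same-numbered r was still above every r between different numbers, which was at most 0.017 for LL with PM. For LL with SOL it was at most 0.050. The limit of 0.1 is a convention, so LL was not shown to be unpaired by number.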

Additional observations from a re-analysis of the deposited data

Results flagged for a closer look

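In each muscle, the highest and the lowest of the 6 libraries were set against the rest by Dixon's test. This was done for 39 sets of values, made of 4 measures of the libraries and the levels of the named members, and 9 stood out. Chance gives about 1 in 20 where sets are not chosen by their values, but 6 of the 9 are in members that were named for a wide gap above the other numbers, so their number restates that choice. ENSOARG00020008049 was far above the other libraries of its muscle in LL 3 (255 FPKM), PM 3 (139 FPKM) and SOL 3 (125 FPKM), the same number in each. ENSOARG00020007615 was far above in LL 6 (16.0 FPKM), PM 6 (20.8 FPKM) and SOL 6 (18.5 FPKM). ENSOARG00020022558 stood out in PM 2, at 29.2 FPKM, where the next PM library held 23.0. SOL 5 had fewer genes detected than the other soleus libraries, 14181 against 14959 or more, and a lower mean correlation with them, 0.901 against 0.915 or more.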

How the results depend on the processing

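The number of members was 97 and 96 with pseudocounts of 0.01 and 1, of which 95 and 92 were the same genes. It was 104 by Spearman rho (51 shared) and 119 after median-ratio scaling (58 shared). It rose to 220 at an r of 0.6 and was 53 at 0.8. Leaving out each number in turn gave 141 to 175 genes by the rule (162, 169 and 175 without numbers 2, 3 and 5), with 65 to 74 of the members among them and 18 members in all 6 cases; with 5 points a given r is reached more easily. Chosen after seeing the data were fits without LL 3 (137 genes, 67 shared), SOL 3 (111, 74 shared) and SOL 5 (146, 80 shared). The number effect was called in 258 to 349 genes under other pseudocounts, filters, scaling and without LL 3, SOL 3 or SOL 5. It was called in 185 to 266 without each number in turn, and the lowest, 185, was without number 6. With the replicate block, 23 members were called in SOL against LL (21 higher, 2 lower), 9 in SOL against PM and 1 in PM against LL, which was lower in PM. The shares of all genes called were 29.4%, 19.8% and 2.69% in the same order, and the choice of members favours calls in this model. In the model with no block, leaving out each number gave 3 to 6 (3 without number 1, 3, 4 or 5), 0 to 1 and 0, so that the call of SOL against PM was lost without number 1. The shares of all genes called fell as well. They were 19.8% to 22.4% against 25.4% for SOL against LL, and 11.4% to 14.4% against 16.8% for SOL against PM. SOL against PM gave 2 without SOL 3, both higher in SOL, where 15.4% of all genes were called. Without SOL 5 it gave 2, of which 1 was higher and 1 lower, where 15.8% were called. Members with a spread of 4 or more numbered 23 with a pseudocount of 0.01 and 8 with a pseudocount of 1, an alternative also added later. Of 81 recomputed spreads of the named genes, 18 moved by more than the residual SD, 8 of them under pseudocounts of 0.01 or 1. Leaving out a gene's own highest or lowest number lowers its spread by construction. That of ENSOARG00020008152 went from 7.65 to 1.39 without number 1. Apart from such arithmetic, the cause of the changes in this section was not tested. Depth limits the low genes most: at the median of 47.5 reads per library in the members with the largest spreads, a number with no reads cannot be told from a level below the floor of 3 reads.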
